A study of Mus musculus with 6 samples.

Results

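Transcripts of 41 lung epithelial genes were followed through 6 RNA-seq libraries of cells from mouse bronchoalveolar lavage (BAL), the fluid rinsed through the lung to collect airspace cells. The genes were chosen by name as markers of lung epithelial cell types and matched by Ensembl identifier through GENCODE M21; each had a row among the 48795 genes of the table. They comprise 11 alveolar type 2, 6 alveolar type 1, 7 club cell, 3 ciliated cell and 14 general epithelial genes.

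Alveolar type 2 cells make and secrete surfactant, the lipid and protein film that keeps alveoli open, while flat type 1 cells form most of the gas exchange surface. In the airways, club cells secrete secretoglobins and other defence proteins, and ciliated cells move the mucus. Lavage recovers mainly macrophages, and epithelial cells or their fragments can come with them.

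All mice were wild-type C57BL/6 at 8 to 12 weeks of age. In the study, mice received either cadmium chloride (100 ng/kg) or saline intratracheally, and lavage followed on day 7. The labels used here give neither an exposure nor a sex to any library. The libraries, titled CD170, CD171, CD174, CD176, CD177 and CD178, therefore form no groups: each is described by itself, with no test between exposures, and nothing in the labels says whether any of them share an animal. In a bulk sample, fewer cells of a type and less RNA per cell cannot be told apart.

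Gene counts ran from 7732244 in CD174 to 23599369 in CD178. Levels are given as counts per 1000000 gene counts (CPM), with library sizes corrected by edgeR's TMM factors. Reads in no annotated gene took 25.0% of counts in CD174, 16.6% in CD171 and 6.49 to 7.29% elsewhere, and Lars2, a mitochondrial tRNA synthetase gene, was at 43705 CPM in CD174, 18236 in CD171 and 1997 to 4244 elsewhere. By these values CD174 and CD171 stand apart, so the main results are given with and without them. The summed level of 8 alveolar macrophage genes varied 1.24-fold, from 26033 to 32256 CPM. Chil3 gave 67.7 to 73.4% of that sum, and without Chil3 it varied 1.16-fold. Marco, 1 of the 8, was at 604.1 CPM in CD174 and 291.6 to 369.6 elsewhere. Each of the other 7 varied at most 1.51-fold. Of 8 endothelial genes, Calcrl, which is not specific to endothelium, was at 54.0 to 72.6 CPM. The other 7 summed to 0.390 to 1.76 CPM, with Tie1 at 0 in each library and Cdh5 and Cldn5 at 0 in all but CD176.

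All 41 epithelial genes together took 0.407% of gene counts in CD174 (95% Wilson interval 0.402 to 0.411%), 0.168% in CD178, 0.158% in CD176, 0.113% in CD171, 0.0982% in CD170 and 0.0972% in CD177. On the CPM scale the sum was 4685 in CD174 and 922.5 to 1629 elsewhere. The shallowest library thus carried the largest epithelial share. Its main contributors differed between libraries. Sftpc, surfactant protein C, gave 34.2% of the epithelial counts in CD174 but 4.28% in CD170, and Tppp3, a tubulin-binding protein used as a ciliated cell marker, gave 8.67% in CD174 but 45.4% in CD177.

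Of the 41 genes, 38 had at least 10 counts in at least 3 libraries. The others were Foxa1 and Foxa2, forkhead transcription factors of lung epithelium, and Cftr, the chloride channel mutated in cystic fibrosis. Foxa1 reached 33 counts in CD176 and 30 in CD178, Foxa2 reached 25 in CD178, and Cftr had 6 counts in CD176, 6 in CD178 and 0 elsewhere. A library at 0 may still hold a gene at up to its floor of 3 counts, which equals 0.447 CPM in CD174 and 0.123 CPM in CD178. Levels below that were not detectable in a library at 0.

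Of the 38 genes, 36 had a range over the libraries (highest minus lowest log2 CPM, with a prior count of 2) of at least 1, a 2-fold spread, against 50.5% of the 12627 genes that passed the same filter. A range of at least 2 was found in 27, against 25.2%. Their median range was 3.13, beside 1.01 over all genes. Without CD174, 32 of the 38 had a range of at least 1, against 32.0% of all genes, and without CD171 as well 30 did, against 19.2%.

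CD174 had the highest level of 27 of the 38 genes, against 29.9% of all genes. CD178 was highest for 5 (11.5% of all genes), CD176 for 4 (11.5%), CD177 for 2 (12.5%), and CD170 and CD171 for 0 (14.5% and 20.1%). Scaling to total counts gave 22 in CD174, and moves the median of all genes there by -0.20. Second place went to CD176 for 16 genes and to CD178 for 12 (19.0% of all genes in either), to CD174 for 5 (9.10%), to CD170 and CD171 for 2 each (17.0% and 16.9%) and to CD177 for 1 (18.9%). The lowest level stood in CD177 for 13 genes (10.5%), CD171 for 12 (23.9%), CD170 for 8 (10.5%), CD176 for 3 (8.81%) and CD178 for 1 (9.12%). Most high levels thus stood in CD174, CD176 and CD178, and most low levels in CD170, CD171 and CD177, with exceptions given gene by gene.

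Each library was also set against the median of the other 5. In CD174, 27 genes were at least 1 log2 unit above that median (10.8% of all genes; 21 genes with total counts) and 0 were at least 1 below (20.1%). In CD176, 15 were above (4.40%) and 2 below (3.26%), and in CD178 11 were above (4.36%) and 0 below (1.44%). In CD177, 0 were above (2.43%) and 18 below (3.89%), in CD170 1 was above (2.12%) and 15 below (4.54%), and in CD171 1 was above (5.10%) and 14 below (11.6%). The median gene stood at 1.76 in CD174, 0.68 in CD176, 0.68 in CD178, -0.66 in CD171, -0.73 in CD170 and -0.92 in CD177, while the median of all genes stood at -0.10 in CD174.

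**Figure D1:**
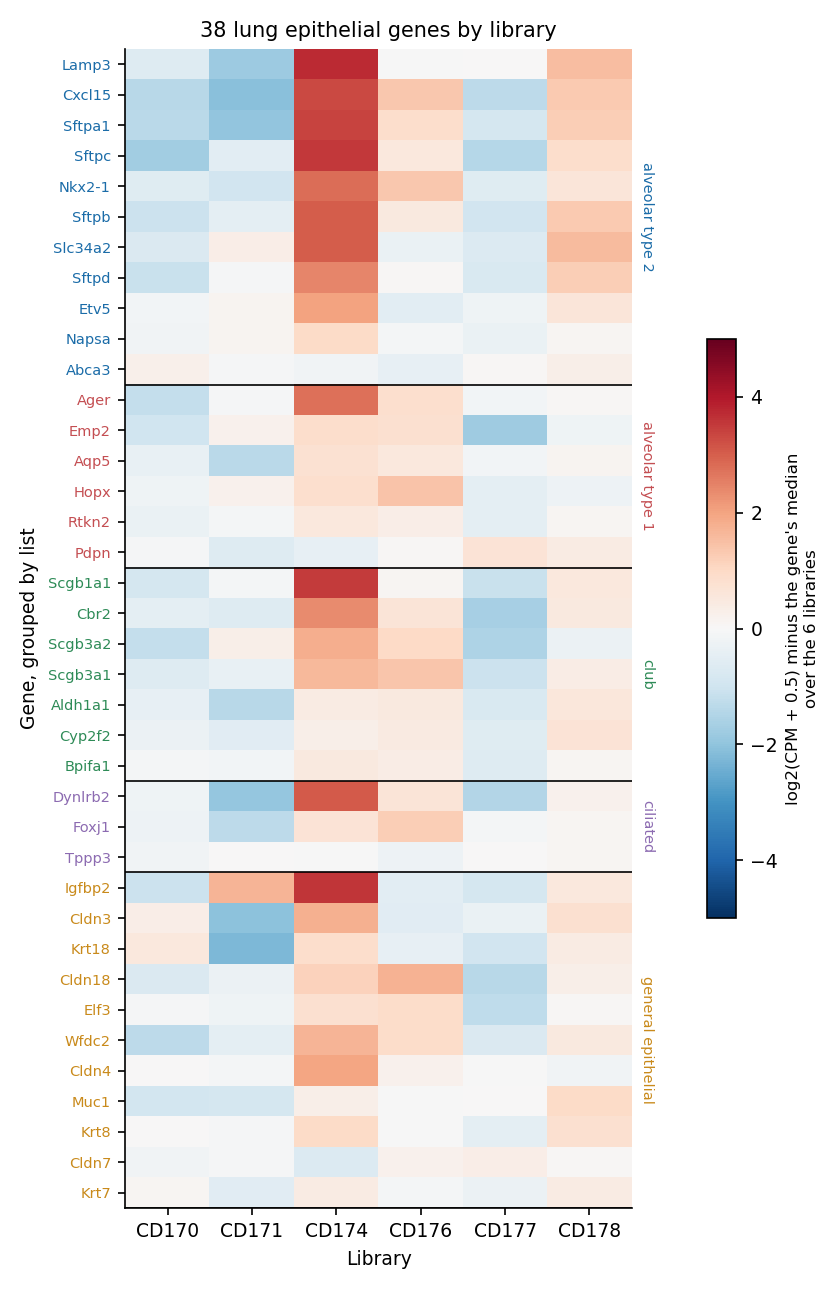
Rows are the 38 epithelial genes past the count filter, grouped by list, and columns the 6 libraries. Colour is log2(CPM + 0.5) minus the gene's median over the libraries, so red is above and blue below that median; CD174 is red for most type 2 and club cell genes, while Tppp3, Abca3, Pdpn and Cldn7 show little or no red there.

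The alveolar type 2 list summed to 2292 CPM in CD174 (95% Poisson interval 2256 to 2328), 527.2 in CD178, 385.9 in CD176, 241.5 in CD171, 185.0 in CD177 and 183.2 in CD170 (177.1 to 189.4). The highest was 12.5 times the lowest (12.1 to 13.0), and 2.88 times without CD174. Without Sftpc, its most abundant member, the ratio was 5.15. Of the 11 genes, 10 were highest in CD174 (29.9% of all genes), and CD178 was second for 7 (19.0%).

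Surfactant protein genes had wide ranges. Sftpc (ENSMUSG00000022097, chromosome 14, 70520949 to 70524081, GRCm38), which encodes a hydrophobic surfactant protein made by type 2 cells, was at 1602 CPM in CD174, 254.1 in CD178, 198.7 in CD176, 97.1 in CD171, 51.1 in CD177 and 41.4 in CD170. CD174 was 6.30 times the next library and 38.7 times the lowest (95% counting interval 36.0 to 41.6). Without CD174 its log2 range was 2.61 in place of 5.27.

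Sftpa1, a collectin that binds microbes, was at 216.1 CPM in CD174, 48.3 in CD178, 37.0 in CD176, 10.9 in CD177, 7.69 in CD170 and 4.71 in CD171. Sftpb, needed to spread the film, lay between 6.05 CPM in CD170 and 113.6 in CD174, with a median of 14.3. Sftpd, the other surfactant collectin, lay between 2.49 CPM in CD170 and 34.4 in CD174, with a median of 5.92. For Sftpc, Sftpa1, Sftpb and Sftpd alike, CD174 was highest and CD178 second.

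Surfactant handling genes split. Lamp3, a lysosomal membrane protein of lamellar bodies, was at 26.5 CPM in CD174, 5.46 in CD178, 1.56 in CD177, 1.502 in CD176, 0.796 in CD170 and 0.0772 in CD171. The CD171 value rests on 1 count, so the ratio of CD174 to it has an interval from 60.8 to 13639. Slc34a2, a phosphate transporter of type 2 cells, lay between 2.55 CPM in CD170 and 40.4 in CD174.

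Abca3, the lipid pump that loads lamellar bodies, behaved otherwise, at 73.2 CPM in CD178, 70.2 in CD170, 61.7 in CD177, 56.7 in CD171, 51.8 in CD174 and 44.5 in CD176. Its range was 0.72, and 32.4% of all genes had a smaller one. Napsa, an aspartic protease that processes surfactant proteins, was at 101.6 CPM in CD174, 57.5 in CD171, 56.4 in CD178, 49.3 in CD176, 46.4 in CD170 and 41.5 in CD177, and its range of 1.29 was 0.47 without CD174. Counts of Sftpc per count of Abca3 accordingly ran from 0.590 in CD170 to 30.9 in CD174.

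The regulators and the chemokine of the list were highest in CD174 too. Nkx2-1, the transcription factor that specifies lung epithelium, had 77 counts in CD174, 59 in CD176, 51 in CD178, 13 in CD177, 12 in CD170 and 5 in CD171, or 11.5 CPM at the highest. Etv5, a transcription factor of type 2 cells, lay between 1.57 CPM in CD176 and 11.8 in CD174. Cxcl15, or lungkine, a neutrophil chemokine of lung epithelium, was at 82.3 CPM in CD174, 20.6 in CD176, 20.2 in CD178, 2.83 in CD177, 2.65 in CD170 and 1.47 in CD171. CD174, CD176 and CD178 held the 3 highest levels of both Nkx2-1 and Cxcl15.

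**Figure D2:**
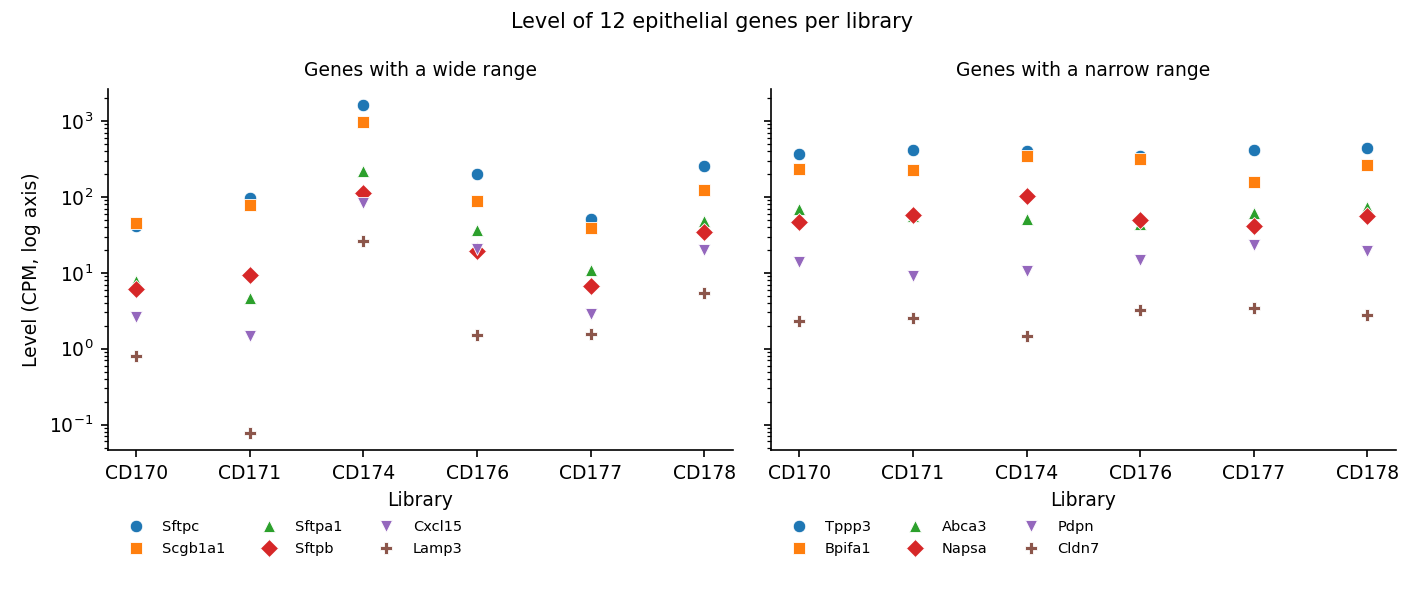
Each point is the level of a gene in a library, in CPM on a log axis, for 6 genes with a wide range over the libraries (left) and 6 with a narrow one (right). The left-hand genes peak in CD174, as Sftpc does at 1602 CPM, while on the right Tppp3 stays between 347.4 and 435.8 CPM.

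Promoter sequences are shown for 4 genes with wide ranges, Sftpa1, Sftpb, Cxcl15 and Scgb3a1 (a secretoglobin described with the club cell genes). The sequence of Abca3, whose level was steady, is shown too. All come from RefSeq on GRCm38.p6, each 250 bases before to 50 after a gene start, and 33 of the 41 genes had 42 such windows. Capitals mark matches on either strand to 4 motifs. These are CTCAAG, a core of NKX2-1 sites, TGTTTAC and TGTTTGC, forms of the forkhead site that FOXA factors bind, and the TATA box letters TATAAA.
Sftpa1 (chr14:41131538-41131837, + strand): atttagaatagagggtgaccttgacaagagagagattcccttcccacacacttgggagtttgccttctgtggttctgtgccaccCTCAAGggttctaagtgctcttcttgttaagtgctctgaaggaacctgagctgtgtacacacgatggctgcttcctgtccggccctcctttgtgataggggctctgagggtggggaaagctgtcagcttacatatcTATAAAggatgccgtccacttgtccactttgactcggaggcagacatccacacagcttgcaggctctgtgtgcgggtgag
Sftpb (chr6:72304360-72304659, + strand): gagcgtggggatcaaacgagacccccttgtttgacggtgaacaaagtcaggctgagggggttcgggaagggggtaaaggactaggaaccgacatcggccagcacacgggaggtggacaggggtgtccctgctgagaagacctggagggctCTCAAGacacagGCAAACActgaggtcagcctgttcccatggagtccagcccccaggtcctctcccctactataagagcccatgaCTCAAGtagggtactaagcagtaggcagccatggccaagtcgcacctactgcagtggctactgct
Cxcl15 (chr5:90794284-90794583, + strand): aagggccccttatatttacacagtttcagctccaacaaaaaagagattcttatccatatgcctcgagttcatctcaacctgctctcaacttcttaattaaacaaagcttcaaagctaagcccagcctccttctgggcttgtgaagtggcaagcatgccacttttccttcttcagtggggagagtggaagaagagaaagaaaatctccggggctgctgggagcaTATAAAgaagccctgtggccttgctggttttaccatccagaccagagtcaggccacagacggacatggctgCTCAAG
Scgb3a1 (chr11:49663345-49663644, + strand): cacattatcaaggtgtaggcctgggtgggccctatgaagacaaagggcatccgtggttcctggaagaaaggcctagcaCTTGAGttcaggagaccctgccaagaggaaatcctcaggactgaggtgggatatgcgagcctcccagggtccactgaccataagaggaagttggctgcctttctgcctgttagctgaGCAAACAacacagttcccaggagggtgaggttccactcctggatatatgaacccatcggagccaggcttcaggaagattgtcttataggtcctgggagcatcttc
Abca3 (chr17:24351773-24352072, + strand): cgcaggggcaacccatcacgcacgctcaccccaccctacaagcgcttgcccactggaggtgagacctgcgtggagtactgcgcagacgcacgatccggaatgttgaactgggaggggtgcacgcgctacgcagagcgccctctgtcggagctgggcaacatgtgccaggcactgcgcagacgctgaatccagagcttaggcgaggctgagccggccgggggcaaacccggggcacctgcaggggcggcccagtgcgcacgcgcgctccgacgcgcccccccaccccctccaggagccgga

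CTCAAG was present in 11 of the 42 epithelial windows, in 10 genes, against 15.9% of all 32851 windows. TGTTTAC was present in 4 of the 42 (3.65% of all), TGTTTGC in 4 (5.07%) and TATAAA in 6 (13.6%). Sftpa1, Sftpb, Cxcl15 and Scgb3a1 each held CTCAAG, and Abca3 had no match to any of the 4 motifs. CTCAAG was also present in Dynlrb2 (range 7.00), Igfbp2 (5.53), Muc1 (2.08), Hopx (1.98), Bpifa1 (1.13) and Foxa2. Lamp3 (7.07), Cldn18 (3.31), Etv5 (2.81), Krt8 (1.59), Pdpn (1.35) and Foxa1 had another of the motifs but not CTCAAG. Like Abca3, the remaining genes with a window had no match. Among them were Cldn3 (5.28), Nkx2-1 (4.51), Krt18 (4.27), Ager (4.17), Cbr2 (4.06), Slc34a2 (3.92), Cyp2f2 (1.32), Cldn7 (1.15) and Krt7 (1.09). Elf3, Wfdc2, Emp2, Aqp5, Cldn4 and Aldh1a1, with ranges between these, had none either, nor did Cftr. Genes without a match thus had wide as well as narrow ranges. Whether any motif goes with range was not tested. No matches in the printed windows overlapped each other. The matches describe the letters of the windows and no binding.

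The alveolar type 1 list was lower, at 75.0 CPM in CD174, 56.4 in CD176, 37.8 in CD178, 35.4 in CD177, 29.3 in CD171 and 25.8 in CD170. CD174 was 2.90 times CD170 (2.56 to 3.30). In CD174, 4 of the 6 genes were highest (29.9% of all genes), with CD176 second for each of those 4 (19.0%). Ager, the receptor for advanced glycation end products and a classical type 1 marker, was at 36.3 CPM in CD174, 9.28 in CD176, 5.17 in CD178, 4.71 in CD171, 4.39 in CD177 and 1.91 in CD170. Its CD174 level was 3.92 times the next library, while for the other 5 genes the highest library was at most 1.52 times the next.

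Hopx, a homeodomain protein of type 1 cells, was at 16.9 CPM in CD176, 11.2 in CD174, 7.10 in CD171, 5.09 in CD170, 4.97 in CD178 and 4.20 in CD177. Emp2, a tetraspan membrane protein, was at 11.5 CPM in CD174, 10.9 in CD176, 7.18 in CD171, 5.09 in CD178, 2.81 in CD170 and 1.42 in CD177, near equal in the upper pair of libraries. Aqp5, the apical water channel, was at 4.02 CPM in CD174, 3.33 in CD176, 2.38 in CD178, 1.90 in CD177, 1.54 in CD170 and 0.540 in CD171. For Hopx the order of CD174 and CD176 was thus reversed. Rtkn2 lay between 0.488 and 1.49 CPM on 10 to 24 counts.

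Pdpn, podoplanin, had another order, at 23.0 CPM in CD177, 19.2 in CD178, 14.8 in CD176, 13.9 in CD170, 10.6 in CD174 and 8.95 in CD171. CD177, lowest for 3 of the 6 genes (10.5% of all genes), was here the highest, and CD174 lay second from the bottom. Podoplanin is known from inflammatory macrophages too. Which cells its reads came from was not tested. Without Pdpn, CD174 had a summed level of 64.5 CPM and CD170 one of 11.9 CPM, a ratio of 5.40.

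Club cell genes summed to 1779 CPM in CD174, 653.6 in CD176, 564.7 in CD178, 412.2 in CD171, 365.4 in CD170 and 255.8 in CD177. The highest was 6.96 times the lowest (6.73 to 7.19), and 2.55 times without CD174. CD177 was lowest for 6 of the 7 genes (10.5% of all genes), and CD176 was second for 6 (19.0%). Bpifa1, an abundant secreted defence protein of the upper airways also called SPLUNC1, was the steadiest member, at 348.0 CPM in CD174, 317.9 in CD176, 266.4 in CD178, 230.1 in CD170, 227.2 in CD171 and 158.9 in CD177. Its range was 1.13, and without it the sum of the list was 14.8 times higher in CD174 than in CD177.

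Secretoglobins, small proteins secreted by club cells, differed among themselves. Scgb1a1 (ENSMUSG00000024653, chromosome 19, 9083636 to 9087958, GRCm38), the main club cell secretory product, was at 963.3 CPM in CD174, 121.4 in CD178, 89.1 in CD176, 78.8 in CD171, 45.8 in CD170 and 38.9 in CD177. CD174 was 7.93 times the next library, the widest such gap of the 38 genes, and without it the log2 range was 1.64 in place of 4.63.

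Its relatives had no such gap. Scgb3a1 was at 62.8 CPM in CD174, 53.5 in CD176, 25.9 in CD178, 15.4 in CD171, 12.7 in CD170 and 9.22 in CD177. Scgb3a2 was at 120.9 CPM in CD174, 69.0 in CD176, 42.1 in CD171, 28.0 in CD178, 14.8 in CD170 and 11.4 in CD177. CD176 stood behind CD174 for both, by 1.17 and 1.75 times. Counts of Scgb1a1 per count of Scgb3a1 were 1.67 in CD176 (95% interval 1.53 to 1.82), 3.60 to 5.11 in CD170, CD171, CD177 and CD178, and 15.3 in CD174 (13.9 to 17.0).

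Among the enzymes of the list, Cbr2, a club cell carbonyl reductase, was at 235.3 CPM in CD174, 70.7 in CD176, 63.5 in CD178, 32.0 in CD170, 28.7 in CD171 and 14.0 in CD177. Cyp2f2, the cytochrome that activates naphthalene in mouse club cells, lay between 12.4 CPM in CD177 and 31.2 in CD178, with 24.0 in CD174. Aldh1a1, a retinal dehydrogenase, lay between 6.95 CPM in CD171 and 28.2 in CD178. Unlike Cbr2, Cyp2f2 and Aldh1a1 were highest in CD178.

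Sftpc and Scgb1a1, leading transcripts of alveolar and airway secretory cells, kept a narrower relation than either had alone. Counts of Sftpc per count of Scgb1a1 were 2.23 in CD176, 2.09 in CD178, 1.66 in CD174, 1.31 in CD177, 1.23 in CD171 and 0.905 in CD170, a 2.46-fold spread. Alone, Sftpc spread 38.7-fold and Scgb1a1 24.8-fold. This contrast came largely from CD174. Without it the log2 ranges were 2.61 for Sftpc and 1.64 for Scgb1a1, while the ends of the ratio, in CD176 and CD170, stayed as they were. Sftpc per Sftpa1 was 4.70 to 7.41 in all libraries but CD171, where 1258 and 61 counts gave 20.6 (15.9 to 27.1). CD171 therefore had little Sftpa1 for its Sftpc.

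The ciliated list shows how a sum can hide its members. It lay between 354.4 CPM in CD176 and 439.4 in CD178, a ratio of 1.24, because Tppp3 gave 95.7 to 99.9% of its counts. Tppp3 was at 435.8 CPM in CD178, 418.9 in CD177, 415.9 in CD171, 406.2 in CD174, 362.0 in CD170 and 347.4 in CD176. Its range of 0.33 was the smallest of the 38, and 4.55% of all genes had a smaller one. Epcam, Cdh1 and Krt79, epithelial-type genes that alveolar macrophages are known to express, had ranges of 0.45, 0.27 and 0.40. Whether Tppp3 reads came from ciliated cells or from macrophages was not tested.

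Defining ciliated cell genes were rare. Foxj1, the master regulator of motile cilia, had 70 counts in CD176, 45 in CD178, 31 in CD177, 25 in CD170, 20 in CD174 and 5 in CD171, and was highest in CD176 at 4.57 CPM. Dynlrb2, a dynein light chain of the roadblock family, had 104 counts in CD174, 42 in CD178, 38 in CD176, 21 in CD170, 4 in CD177 and 0 in CD171. Its 15.5 CPM in CD174 was at least 66.9-fold higher than in CD171, against a floor of 3 counts in that library. Foxj1 and Dynlrb2 together summed to 18.5 CPM in CD174 (15.4 to 22.0), 7.05 in CD176 (5.79 to 8.52), 3.57 in CD178, 2.44 in CD170, 1.71 in CD177 and 0.386 in CD171 (0.125 to 0.901).

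Of 20 further cilia genes, 12 passed the count filter and 11 of these had a range of at least 1 (50.5% of all genes). CD171 had 0 counts for 12 of the 20 and CD174 for 7, and these libraries also had a count for the fewest genes of the table, 14377 and 13398 against 16932 to 18373 in the others. The median of the genes past the filter stood at 1.42 in CD176, 0.62 in CD174 and -2.45 in CD171 against the other libraries. CD171 was thus lowest for Foxj1 and Dynlrb2 and, alone or tied, for 8 of these 12 (23.9% of all genes).

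**Figure D3:**
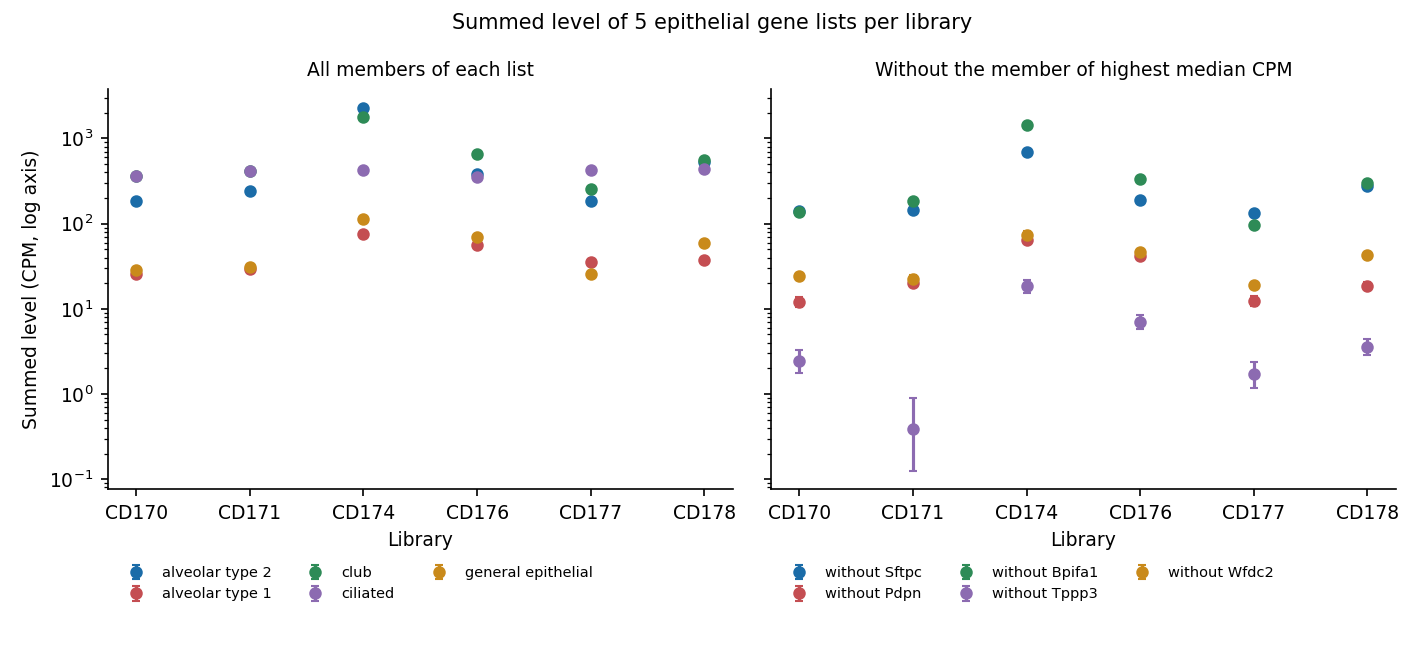
Points are the summed level of each of the 5 lists per library in CPM on a log axis, with 95% Poisson intervals (often smaller than the point), for all members (left) and without the member of highest median CPM (right). The ciliated list is level on the left, where Tppp3 dominates it, and spans 0.386 to 18.5 CPM on the right.

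General epithelial genes summed to 113.9 CPM in CD174, 69.9 in CD176, 60.1 in CD178, 30.6 in CD171, 28.5 in CD170 and 25.7 in CD177. CD174 was 4.43 times CD177 (3.96 to 4.96), and 7 of the 11 genes past the filter were highest in CD174 (29.9% of all genes). Wfdc2, a secreted protease inhibitor of airway epithelium, was at 39.6 CPM in CD174, 22.9 in CD176, 16.8 in CD178, 8.41 in CD171, 6.93 in CD177 and 4.46 in CD170. Muc1, a membrane mucin, was instead highest in CD178 at 7.35 CPM and lowest in CD170 at 1.64.

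Claudins, the barrier proteins of tight junctions, each had their own order of libraries. Cldn18, the claudin of alveolar epithelium, was at 23.8 CPM in CD176, 15.6 in CD174, 8.33 in CD178, 5.40 in CD171, 3.87 in CD170 and 2.29 in CD177. Cldn3 was at 7.59 CPM in CD174, 3.61 in CD178, 2.49 in CD170, 1.37 in CD177, 1.11 in CD176 and 0.0772 in CD171, on 1 count in CD171, so that its ratio of highest to lowest had an interval from 16.9 to 3962. Cldn4 was at 4.47 CPM in CD174 and 0.616 to 0.980 elsewhere, and without CD174 its range was 0.59. Cldn7 had its lowest level in CD174, 1.49 CPM on 10 counts, and lay between 2.33 and 3.46 elsewhere. It was the 1 gene of the 38 that was lowest in CD174, against 37.2% of all genes; scaling to total counts made that 3 genes.

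Krt7, Krt8 and Krt18, keratins of simple epithelium, were at single-digit levels. Krt7 was at 4.91 CPM in CD174, 4.88 in CD178, 3.82 in CD170, 3.33 in CD176, 2.78 in CD177 and 2.24 in CD171. Krt8 lay between 2.29 CPM in CD177 and 7.15 in CD174. Krt18, the partner of Krt8, was at 5.21 CPM in CD174, 4.03 in CD170, 3.69 in CD178, 1.83 in CD176, 1.12 in CD177 and 0.154 in CD171, on 2 counts in CD171. CD174 and CD178 were near equal for Krt7, and Krt18 in CD171 lay under the floor of 3 counts.

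Igfbp2, an insulin-like growth factor binding protein known from type 1 cells, was at 20.3 CPM in CD174, 5.17 in CD171, 1.97 in CD178, 0.719 in CD176, 0.439 in CD177 and 0.318 in CD170. CD171, low for most genes, was second here, and CD174 was 63.6 times CD170 (28.5 to 176.4). Elf3, an epithelial transcription factor, had 41 counts in CD176 and 4 in CD177.

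**Figure D4:**
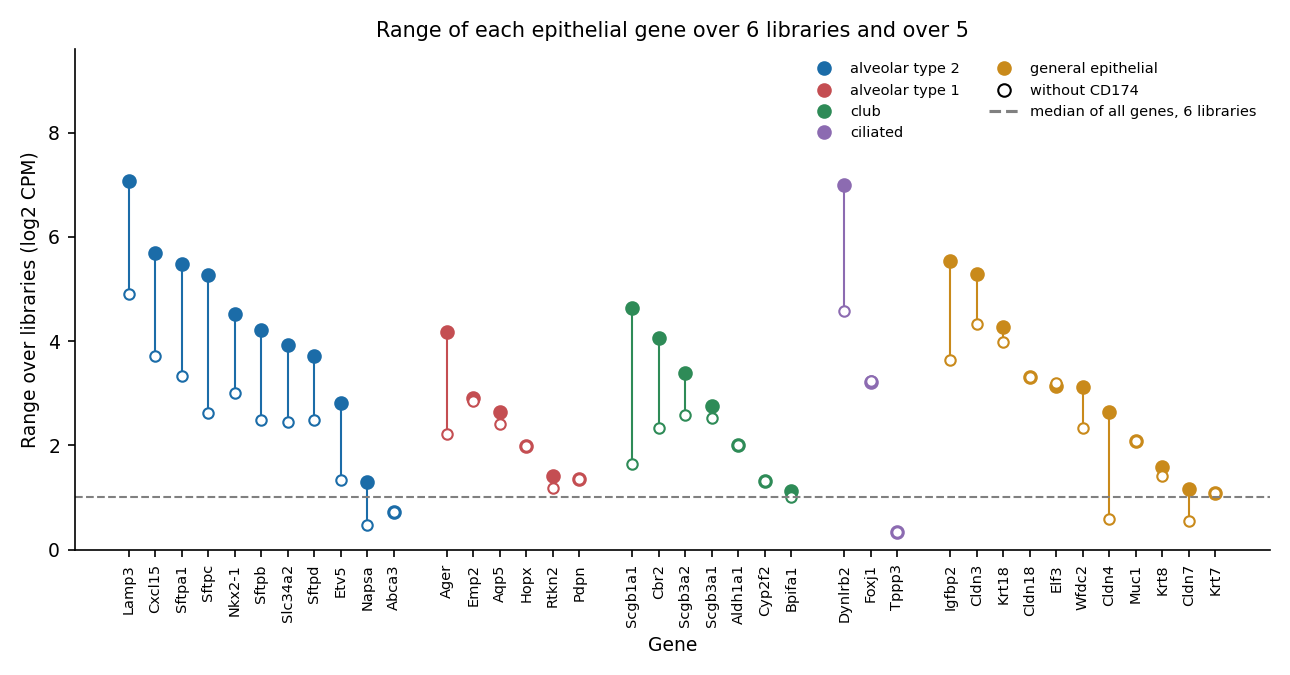
Filled points are the range over 6 libraries of each of the 38 genes, in log2 CPM with a prior count of 2, and open points the range over the 5 libraries without CD174; the dashed line is the median of all genes over 6 libraries, 1.01. Ranges of surfactant genes and Scgb1a1 shrink without CD174, while those of Hopx, Foxj1 and Cldn18 stay.

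Compared per kilobase of merged exons, which corrects for gene length, a few genes led. The median level over libraries was 222.4 CPM per kilobase for Tppp3, 176.4 for Scgb1a1, 160.7 for Bpifa1 and 143.0 for Sftpc. Scgb3a2 followed at 39.9, Cbr2 at 36.0, Scgb3a1 at 34.6 and Napsa at 19.9. The libraries spread more widely than these neighbours. Scgb1a1 ran from 81.7 CPM per kilobase in CD177 to 2024 in CD174, and Sftpc from 40.1 in CD170 to 1549 in CD174. The order among the first 4 genes therefore depended on the library.

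Further epithelial genes, in lists set beside the 41, gave values to compare. Of 12 more type 2 genes, 9 passed the filter and 8 of these were highest in CD174 (29.9% of all genes). Among them were Lpcat1, a surfactant lipid acyltransferase, at 32.5 CPM there and 3.24 to 13.1 elsewhere, and Lyz1, a lysozyme, at 22.8 CPM there and 5.41 to 13.5 elsewhere. Lrrk2, a kinase, was the exception, at 25.9 to 32.9 CPM. The median of these 9 stood at 1.87 in CD174.

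Airway secretory genes outside the club list had another order. Of 13 that passed, 2 were highest in CD174 (29.9% of all genes) and 8 in CD176 (11.5%). Their median stood at -0.13 in CD174 and 1.09 in CD176. Ltf, lactoferrin, lay between 23.2 CPM in CD170 and 50.8 in CD174. Of 10 more type 1 genes, 7 passed, with medians from -0.39 in CD170 to 0.38 in CD176, and -0.16 in CD174. Of these 7, 3 were highest in CD174 (29.9% of all genes) and 2 lowest there (37.2%). Unlike the main type 1 list, their sum was lowest in CD174, at 82.5 CPM beside 82.6 in CD171, and highest in CD177, at 136.1. Cav1 gave 58.8 to 74.0% of this sum. Without Cav1 the sum was still lowest in CD174, at 29.0 CPM, and highest in CD176, at 42.1. Akap5 gave 53.8 to 88.7% of that remainder. Of 12 more general epithelial genes, 8 passed, with medians from -0.35 in CD177 to 0.44 in CD174. Krt19, a keratin of that list, was at 2066 CPM in CD174, 1697 in CD171, 1032 in CD177, 985.5 in CD170, 983.7 in CD178 and 920.7 in CD176, highest in CD174 and CD171.

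Some markers of other cells moved with the epithelial genes and others did not. Mesenchymal genes summed to 63.2 CPM in CD176, 55.9 in CD178, 19.1 in CD174, 14.6 in CD170, 13.1 in CD171 and 8.98 in CD177, so the highest 3 libraries were those that held most of the high epithelial levels. Inmt, an indolethylamine methyltransferase, gave 52.4 CPM in CD176 and 42.7 in CD178. Without Inmt the sum was 13.2 CPM in CD178, 12.0 in CD171, 10.8 in CD176, 8.19 in CD174, 3.27 in CD177 and 3.24 in CD170. The median of the 7 mesenchymal genes past the filter had another order, at 1.25 in CD171, 0.86 in CD176, 0.75 in CD178 and -0.07 in CD174. T and B cell genes summed to 7.15 CPM in CD174 on 48 counts and to 2.28 to 4.09 elsewhere. The median of the 2 past the filter, Cd3d and Trac, stood at 1.92 in CD174. Trac was highest in CD174, at 4.32 CPM on 29 counts. Cd3d was highest in CD171, at 2.55 CPM, with 1.34 in CD174. Erythroid genes, highest in CD170 at 2882 CPM and lowest in CD177 at 111.2, were at 330.3 CPM in CD174, with a median there of -2.58. Neutrophil genes summed to 61.6 CPM in CD174 and 62.8 in CD171, and were highest in CD177, at 102.2, with Ly6g and Elane at 0 in each library. Without Csf3r, their most abundant gene, the lowest sum was 28.1 CPM in CD171, with 38.4 in CD174. Of the 4 past the filter, 2 were lowest in CD174 (37.2% of all genes). Another, S100a8, was highest there (29.9%), at 13.8 CPM against 5.62 to 8.39 elsewhere. The part of depth, of reads outside genes, of Lars2 and of these other cells in the epithelial levels was not tested.

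**Figure D5:**
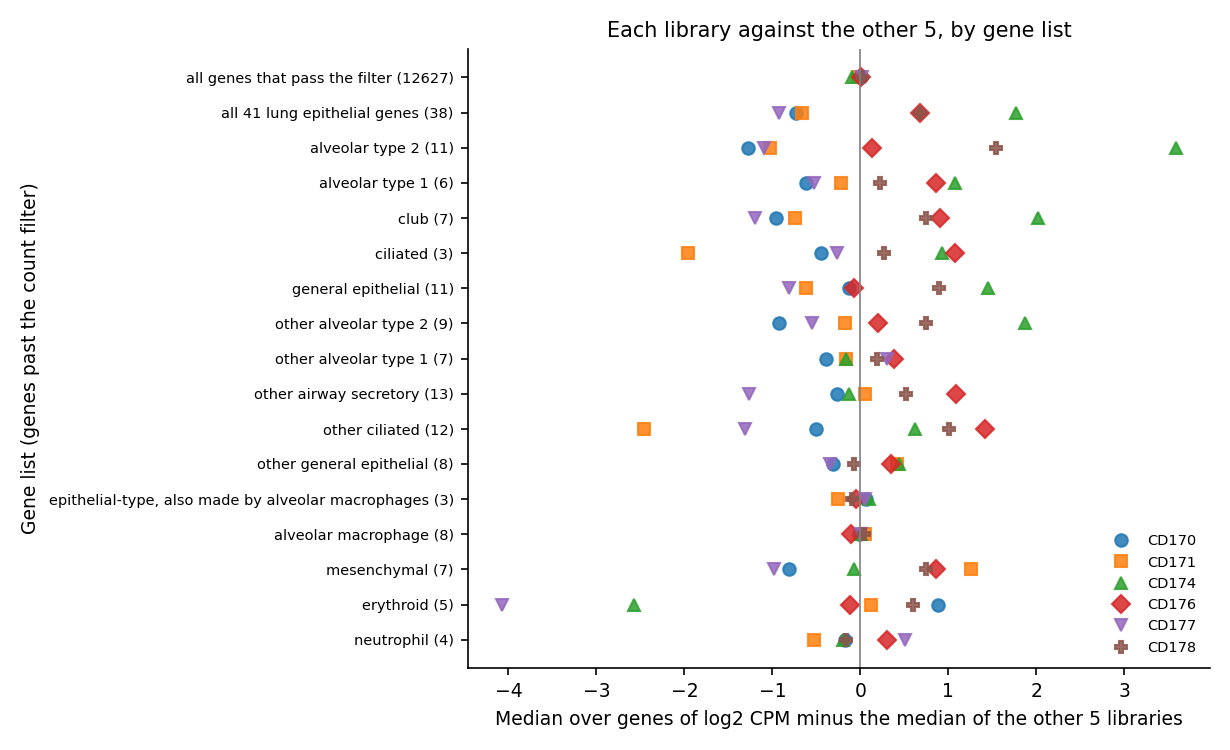
For each gene list (number of genes past the filter in brackets), points give the median over its genes of log2 CPM in a library minus the median of the other 5 libraries. CD174 lies at 3.59 for type 2 genes and at 0.01 for alveolar macrophage genes.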

How the data were processed

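The authors deposited whole-number read counts per gene, not normalized. Per the submitters' processing notes, the genome was GRCm38 and the tools were HTSeq 0.11.2, STAR 2.7.1a, Trim Galore 0.6.2 and bcl2fastq 2.18.0.12. The annotation release and the strand setting were not given in the sources used here, so reads of genes that overlap, antisense ones included, could belong to either: 10 of the 41 genes share exon bases with another gene, over 10% of them in Napsa, Hopx and Cyp2f2. GENCODE M21 matched 48349 of 48795 identifiers. The 5 summary rows (18.8 to 46.0% of counts) were left out.

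CPM came from TMM scaling in edgeR 4.0.16 (R 4.3.3). Ranges used log2 CPM at a prior count of 2. The filter, 10 counts in 3 libraries, kept 12627 genes. DESeq2 1.42.0 size factors, total counts, other priors and filters, and leaving out libraries or the leading gene were alternatives. All 15 library pairs differed by more than sampling noise (chi-square per degree of freedom 19.2 or more). With no groups, no test between libraries or exposures was run; Dixon's ratio was used to mark libraries far from the rest. Intervals (95%) and floors cover counting error only; without molecular identifiers, copies of a molecule count as separate reads. The range calculation was tested on simulated data. Other tools were matplotlib 3.10.9, scipy 1.17.1, pandas 2.3.3, numpy 2.4.6 and Python 3.11.15.

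Values in each library are given for the 3 genes per list with the highest median CPM and the 3 with the widest range. Scgb3a1, Nkx2-1, Marco, the gene pairs and the motifs were chosen after values were seen. Members and lists were chosen with earlier results of these data known.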

Additional observations from a re-analysis of the deposited data

Results flagged for a closer look

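Dixon's ratio, the gap between an end library and its nearest neighbour over the whole range of the 6, was taken for 44 values (6 list sums and 38 genes). It exceeded the 95% critical value of 0.625 in 19. In all 19 the library was CD174 and it was the highest. The ratio was taken on CPM, not on log2 CPM. On that scale a high library is marked more easily than a low one, so the shared direction carries little weight. The critical value assumes normally distributed values, for which chance marks about 1 in 20 sets. Genes of a list also move together and stand inside its sum, so that rate does not apply here. The ratio was not taken on log2 CPM.

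The sums so marked were those of all 41 genes (4685 CPM), of alveolar type 2 genes (2292 CPM) and of club cell genes (1779 CPM). Among type 2 genes they were Sftpc (1602 CPM), Sftpa1 (216.1), Sftpb (113.6), Napsa (101.6), Cxcl15 (82.3), Slc34a2 (40.4), Sftpd (34.4), Lamp3 (26.5), Etv5 (11.8) and Nkx2-1 (11.5). Abca3 was the type 2 gene not among them. Ager (36.3 CPM) was the type 1 gene, Scgb1a1 (963.3) and Cbr2 (235.3) the club cell genes, Dynlrb2 (15.5) the ciliated cell gene, and Cldn4 (4.47) and Igfbp2 (20.3) the general epithelial genes.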

How the results depend on the processing

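No paired analysis was possible because the labels place none of the 6 libraries in a group. The ratio of the highest to the lowest summed level of all 41 genes was 5.08, and 5.21 with DESeq2 size factors. Total counts gave 4.19 for all genes, 10.7 for type 2, 2.48 for type 1, 5.73 for club and 3.65 for general epithelial genes. Without the member of highest median CPM these ratios were 8.50, 5.15, 5.40, 14.8 and 3.95, and 47.8 for ciliated genes. Leaving out each library in turn gave 1.77 to 5.08 for all genes, 2.88 to 12.5 for type 2, 2.18 to 2.90 for type 1, 2.55 to 6.96 for club, 1.20 to 1.24 for ciliated and 2.72 to 4.43 for general epithelial genes. The lowest value came without CD174, except for ciliated genes, where it came without CD178; without CD177 the ratio was 4.84 for all genes and 4.87 for club genes. Without CD171 and CD174 together, chosen after seeing the data, the ratios were 1.77 for all, 2.88 for type 2, 2.18 for type 1, 2.55 for club and 2.72 for general epithelial genes. These shifts follow from the library, gene or scaling that was changed. The numbers of genes with a range of at least 1 stayed within 1.5 times their reported values under each alternative run, at 32 to 36 of 38 when 1 library was left out. Depth limits the wide ranges of Lamp3, Cldn3, Krt18 and Dynlrb2, whose lowest library held 0 to 2 counts, and these depend on the prior count.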
